A study of Mus musculus with 35 samples.

Results

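The oxidative phosphorylation subunit genes are the nuclear genes for the proteins that make up the respiratory chain and the ATP synthase of mitochondria. They were taken from the count table of sorted mouse thymocytes by biotype and symbol: protein-coding genes whose name starts with Nduf and one of the letters a, b, c, s or v and a number, with Uqcr, with Cox and a number from 4 to 8 or with Atp5, together with Sdha to Sdhd and Cyc1. The rule found 84 of the 41096 genes of the table. By symbol, 37 belong to complex I, 4 to complex II, 9 to complex III, 17 to complex IV and 17 to complex V. The table held 0 genes on a mitochondrial chromosome, so the subunits that mitochondrial DNA encodes were not analysed here. A few symbols do not name the subunit they seem to: Ndufa4 is now counted as a complex IV subunit, Cox7a2l is a factor that joins complexes into supercomplexes, Atp5s is coupling factor B and Atp5sl is a relative of it that takes part in complex I assembly.

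Complex I passes electrons from NADH to coenzyme Q, complex II does so from succinate and is also an enzyme of the citric acid cycle, complex III passes them on to cytochrome c and complex IV to oxygen. Complexes I, III and IV pump protons, and complex V, the ATP synthase, makes ATP as the protons flow back through its ring of c subunits. In the thymus, DN cells (CD4-CD8-, the early progenitors) include the cells that proliferate after a first rearranged T cell receptor chain is tested, whereas most DP cells (CD4+CD8+) are small and resting and wait for selection.

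RNA was sequenced from 35 libraries in 7 groups of 5. The young groups (DN and DP) are wild type and 10 weeks old, and the aged groups (DN and DP) are wild type and 60 weeks old. The WT groups (DN and DP) carry Mettl3flox/wt; Cd4Cre, that is the Cre transgene and 1 floxed allele, and the KO group (DP) carries Mettl3flox/flox; Cd4Cre; both are 10 weeks old. Cd4Cre puts the Cre recombinase under control elements of Cd4, which become active around the DN to DP transition. Mettl3 encodes the catalytic subunit of the m6A RNA methyltransferase. DN cells of the KO genotype are not analysed here. Whether the 5 libraries of a group are separate mice is not labelled, so p-values measure the spread between these libraries, which may be technical.

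Library totals ran from 12391908 to 18820157 counts. Mettl3 itself was at 52.1 ± 5.42 CPM (counts scaled to library size, mean ± SD, n = 5) in KO DP and 50.5 ± 4.05 in WT DP; a count over the whole gene includes reads outside a deleted stretch, so it did not test the deletion. In young mice the sort labels were borne out by marker genes. The summed CPM of 8 DP-stage genes was 18048 to 20358 in young DP against 2730 to 4119 in young DN. That of 8 DN-stage genes was 486 to 665 against 3128 to 3597. The DP-stage sum was also higher in DP in aged mice, 15172.5 to 17554 against 556 to 2828 CPM, and in WT mice, 15481 to 17218 against 2617 to 3324 CPM. The DN-stage sum was 1313 to 2875 CPM in aged DN and 1256 to 2554 CPM in WT DN. Every library of both groups thus lay below every young DN library. The lowest were aged DN 5 and WT DN 2. Several libraries stood apart by markers of other cells. Aged DN 5 had 9819 CPM of 9 B cell markers and 17083 CPM of 8 dendritic cell markers, aged DN 1 had 7714 CPM of 7 gamma delta and innate-like T cell markers, WT DN 2 had 3151 CPM of the B cell and 9309 CPM of the dendritic cell markers, and aged DP 5 had 524 CPM of the B cell markers. The dendritic cell sum need not mark those cells alone. It was 898 to 1416 CPM in young DP and 359 to 894 CPM in young DN, although 1 of its 8 genes rose and 6 fell in young DP. In bulk samples, fewer cells of a type and less RNA per cell cannot be told apart.

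Promoter windows show the sequence around the start sites of the c-ring genes and of 6 others described in the sections that follow, chosen after their values were seen. RefSeq windows of GRCm38.p6, from 250 bases before to 50 bases after the start, matched 68 of the 84 genes. These windows were searched on both strands for 5 motifs of factors known to act at genes of mitochondria and growth. The NRF1 core CGCATGCG was found in 8 of 68 windows (11.8%, against 1.91% of all 27025 promoters), the ETS motif CCGGAAG in 22.1% against 9.12%, the YY1 motif AAGATGGC in 14.7% against 2.88%, the SP motif GGGCGG in 39.7% against 35.9%, and the E-box CACGTG in 10.3% against 7.24%. In 9 of the 10 genes with the YY1 motif it lay 23 to 39 bases after the start. The median GC content of the windows was 57.33%, against 52.67% in all promoters. A match is a description of the letters, not evidence that a factor binds there.

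The c subunit genes Atp5g1, Atp5g2 and Atp5g3 encode the same mature protein with different targeting peptides, and are shown because their levels parted between the stages. Motif letters are in capitals, each window running 5′ to 3′ on the gene's own strand.
Atp5g1, chr11:96075582-96075881, minus strand: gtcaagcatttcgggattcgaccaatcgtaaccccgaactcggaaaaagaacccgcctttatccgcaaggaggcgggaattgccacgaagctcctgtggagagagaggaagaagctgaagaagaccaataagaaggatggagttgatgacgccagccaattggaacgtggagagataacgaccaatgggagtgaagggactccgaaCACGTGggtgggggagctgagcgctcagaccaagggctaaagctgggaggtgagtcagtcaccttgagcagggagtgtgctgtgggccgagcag
Atp5g2, chr15:102670998-102671297, minus strand: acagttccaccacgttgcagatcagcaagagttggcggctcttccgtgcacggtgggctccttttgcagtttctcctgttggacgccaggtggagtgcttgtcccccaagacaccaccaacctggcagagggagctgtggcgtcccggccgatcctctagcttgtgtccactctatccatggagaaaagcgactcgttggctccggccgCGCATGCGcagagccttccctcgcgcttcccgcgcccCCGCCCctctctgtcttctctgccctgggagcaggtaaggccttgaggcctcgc
Atp5g3, chr2:73911277-73911576, minus strand: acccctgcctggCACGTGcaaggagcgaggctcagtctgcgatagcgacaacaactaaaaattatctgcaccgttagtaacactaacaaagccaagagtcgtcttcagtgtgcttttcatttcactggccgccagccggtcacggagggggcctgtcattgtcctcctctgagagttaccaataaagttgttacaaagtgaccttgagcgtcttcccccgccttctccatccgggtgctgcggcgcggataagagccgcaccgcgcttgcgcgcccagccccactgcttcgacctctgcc
The Atp5g1 and Atp5g3 windows each hold 1 E-box, and the Atp5g2 window holds an NRF1 core and an SP motif. The next windows belong to subunits of complexes I, II and III that were lower in DP cells: Ndufa10, an accessory subunit of complex I, Sdhd, a membrane anchor of complex II, and Uqcr11, a small subunit of complex III.
Ndufa10, chr1:92473709-92474008, minus strand: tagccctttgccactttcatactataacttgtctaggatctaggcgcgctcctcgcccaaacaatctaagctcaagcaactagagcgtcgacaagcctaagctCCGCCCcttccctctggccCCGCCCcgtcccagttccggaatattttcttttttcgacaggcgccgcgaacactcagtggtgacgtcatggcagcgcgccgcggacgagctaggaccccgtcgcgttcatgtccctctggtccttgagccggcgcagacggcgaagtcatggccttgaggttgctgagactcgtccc
Sdhd, chr9:50603800-50604099, minus strand: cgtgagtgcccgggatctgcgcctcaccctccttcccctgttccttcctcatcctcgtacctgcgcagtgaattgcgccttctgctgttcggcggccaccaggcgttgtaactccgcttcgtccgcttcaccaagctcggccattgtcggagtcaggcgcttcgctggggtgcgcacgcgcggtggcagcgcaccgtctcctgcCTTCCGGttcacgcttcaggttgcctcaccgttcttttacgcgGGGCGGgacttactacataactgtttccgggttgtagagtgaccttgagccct
Uqcr11, chr10:80406772-80407071, minus strand: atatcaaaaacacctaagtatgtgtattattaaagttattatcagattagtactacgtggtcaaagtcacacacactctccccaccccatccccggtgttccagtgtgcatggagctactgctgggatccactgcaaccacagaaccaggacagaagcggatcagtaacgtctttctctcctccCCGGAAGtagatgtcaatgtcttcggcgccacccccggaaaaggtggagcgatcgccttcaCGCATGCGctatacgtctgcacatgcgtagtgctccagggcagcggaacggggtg
Ndufa10 holds 2 SP motifs, Sdhd an ETS and an SP motif, and Uqcr11 an ETS motif and an NRF1 core. The last windows belong to the genes that went the other way, Ndufv3 and Ndufs4 of the NADH-binding arm of complex I and Atp5h, the d subunit of the ATP synthase stalk.
Ndufv3, chr17:31519865-31520164, plus strand: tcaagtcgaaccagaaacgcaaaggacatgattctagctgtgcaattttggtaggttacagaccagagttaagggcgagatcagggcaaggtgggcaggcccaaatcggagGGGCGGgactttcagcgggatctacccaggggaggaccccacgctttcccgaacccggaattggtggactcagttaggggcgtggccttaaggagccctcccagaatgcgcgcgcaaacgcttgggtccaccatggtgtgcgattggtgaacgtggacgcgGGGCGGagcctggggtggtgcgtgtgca
Ndufs4, chr13:114388045-114388344, minus strand: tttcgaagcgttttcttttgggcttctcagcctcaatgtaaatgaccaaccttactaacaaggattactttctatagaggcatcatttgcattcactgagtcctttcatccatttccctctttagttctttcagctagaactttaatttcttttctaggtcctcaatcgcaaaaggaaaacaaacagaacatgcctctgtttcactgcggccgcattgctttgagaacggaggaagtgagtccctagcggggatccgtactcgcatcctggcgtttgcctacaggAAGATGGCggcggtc
Atp5h, chr11:115419870-115420169, minus strand: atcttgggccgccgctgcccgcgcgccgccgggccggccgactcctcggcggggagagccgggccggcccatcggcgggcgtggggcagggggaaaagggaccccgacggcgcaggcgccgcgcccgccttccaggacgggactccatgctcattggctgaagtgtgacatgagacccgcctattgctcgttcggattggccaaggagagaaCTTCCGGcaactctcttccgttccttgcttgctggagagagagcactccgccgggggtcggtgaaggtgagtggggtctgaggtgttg
Ndufv3 holds 2 SP motifs, Ndufs4 a YY1 motif and Atp5h an ETS motif. Among the genes lower in young DP than in young DN, 5 of 37 windows held the NRF1 core and 5 of 37 the YY1 motif; among the higher, 0 of 6 and 2 of 6 did.

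In young mice, most subunit genes that differed between the stages were lower in DP than in DN cells, across all 5 complexes. Of 79 genes tested, 44 fell and 6 rose from DN to DP, with a median log2 change of -0.32 (edgeR quasi-likelihood test, Benjamini-Hochberg adjusted over all genes). Of all 13772 genes tested, 70.4% were called, 36.5% lower and 33.9% higher, and their median change was -0.01. The share of subunit genes called, 63.3%, was thus no higher than the background, while 55.7% were called lower and 7.59% higher. Summed over all 84 genes, young DN libraries held 8576, 8593, 8144, 8136 and 7438 CPM and young DP libraries 7236, 6821, 5975, 5956 and 6062 CPM. The lowest young DN library stood above the highest young DP library, by a narrow margin. Complex V held the largest part of this sum, on average 3920 of 8178 CPM in young DN and 2819 of 6410 CPM in young DP.

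**Figure D1:**
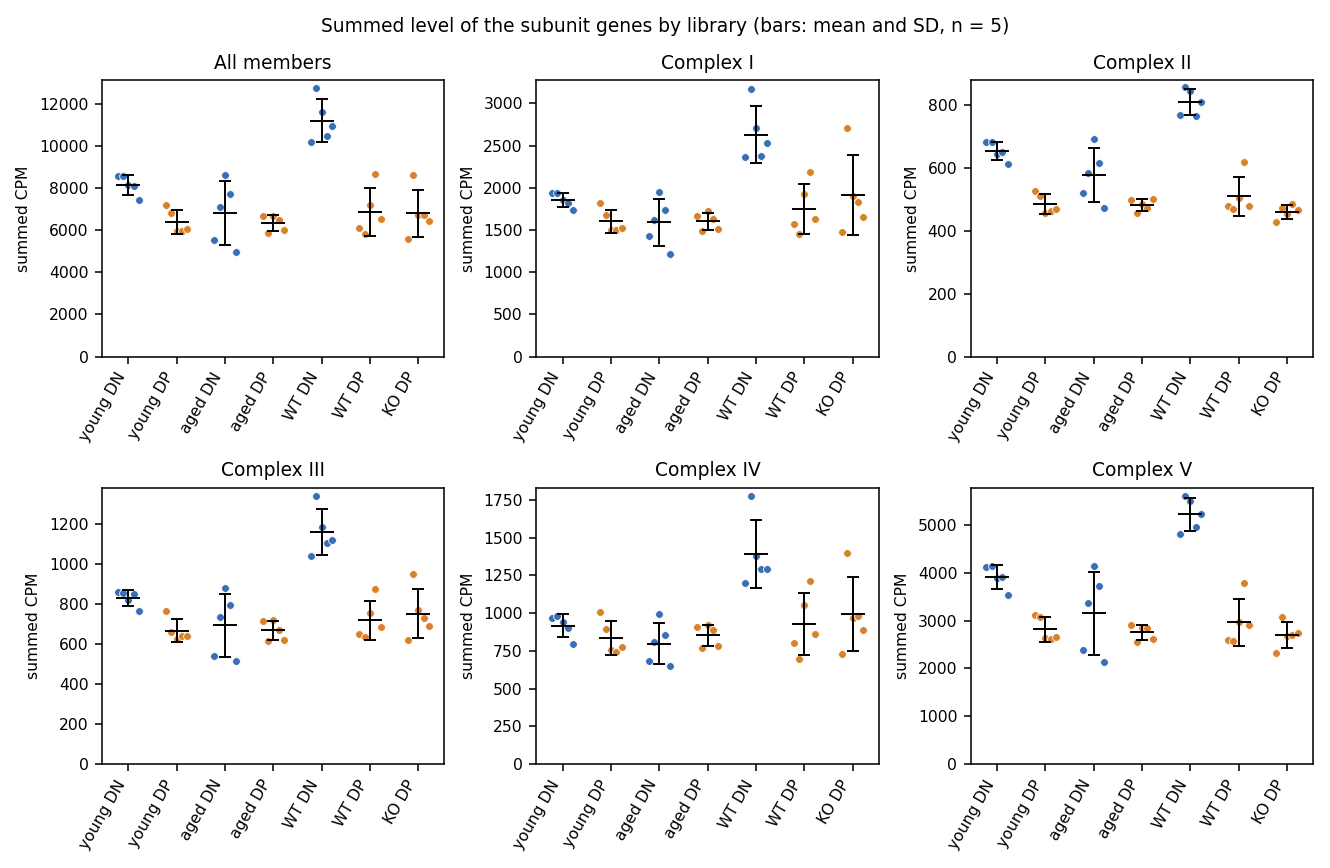
Summed CPM of all subunit genes and of each complex (vertical axes, from 0) in each of the 35 libraries, by group; points are libraries, bars mean and SD of 5. WT DN libraries, from 10196 to 12762 CPM over all members, lie above every other library, and aged DN libraries spread from 4984 to 8662 CPM.

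The c-ring genes of complex V showed the widest gap. Atp5g1 (chromosome 11, bases 101423868 to 101430730, minus strand of the strain annotation the table uses) was at 83.2, 86, 79.8, 81.4 and 65 CPM in young DN and at 32.9, 22.7, 23.1, 28.5 and 25.6 CPM in young DP. Every DN library was about double or more the highest DP library, and the log2 change was -1.55 (SE 0.106, adjusted p = 5.4e-09 by edgeR's quasi-likelihood test). Atp5g2 was at 133, 134, 131, 125 and 105 CPM in young DN and 74.9, 60.0, 61.6, 52.9 and 55.5 CPM in young DP, again without overlap, a log2 change of -1.02 (SE 0.0939). Atp5g3 fell less, from 222 ± 20.4 to 162 ± 17.5 CPM, a log2 change of -0.44 (SE 0.0811). Per kb of gene model, Atp5g1 made up 9.49 ± 0.145% of the c-ring total in young DN and 5.36 ± 0.886% in young DP, Atp5g2 38.4 ± 1.01% and 31.1 ± 1.53%, and Atp5g3 52.1 ± 1.04% and 63.5 ± 2.08% (SD, n = 5). None of these shares overlapped between the stages: Atp5g3 was 50.6% to 53% in DN and 60.9% to 66.6% in DP. The mix of c-ring genes thus shifted towards Atp5g3 in DP cells. The size of each share depends on the gene model lengths, 4265, 1675 and 2181 bases for Atp5g1, Atp5g2 and Atp5g3.

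**Figure D2:**
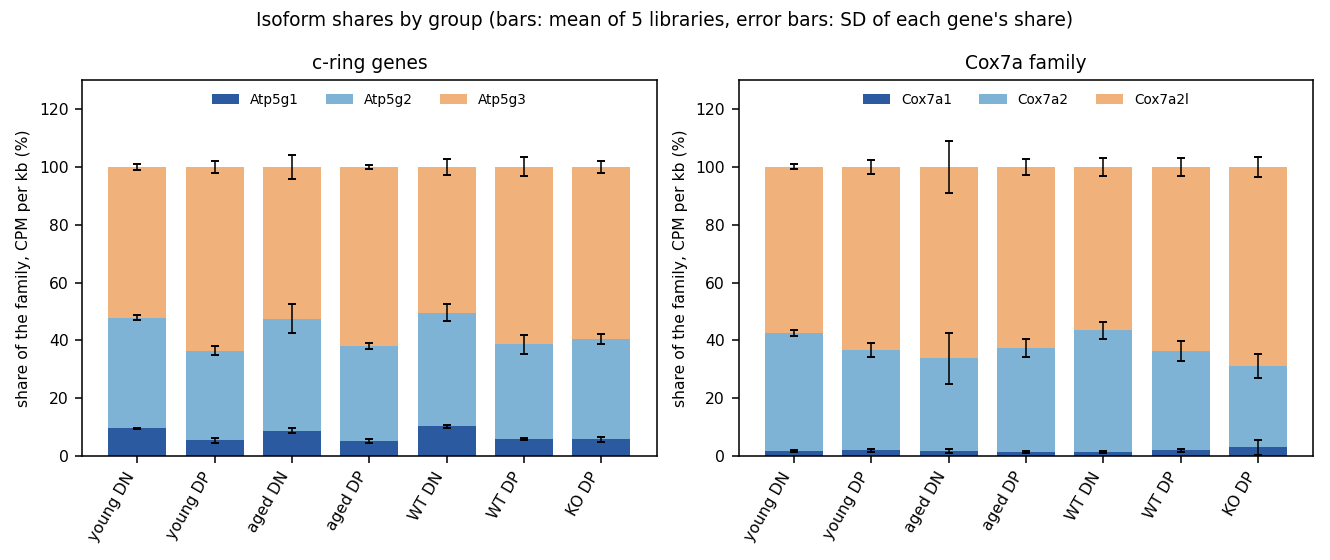
Share of each gene in the c-ring family and in the Cox7a family (vertical axis, percent of the family's CPM per kb) in the 7 groups; stacked bars are means of 5 libraries and error bars the SD of each share. Atp5g1 is between 8.78% and 10.3% in the DN groups and between 5.30% and 5.75% in the DP groups.

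The rest of complex V was mostly lower as well. All 5 genes of the catalytic head and central stalk fell, with log2 changes from -0.62 to -0.35; the catalytic beta subunit gene Atp5b went from 1379 ± 99.7 to 904 ± 91.9 CPM (log2 -0.59). Of the 4 peripheral stalk genes, Atp5f1 and Atp5o fell, Atp5j was at -0.26 without passing (adjusted p = 0.0628), and Atp5h rose. Atp5h was at 48.5, 47.4, 45.7, 35.2 and 54.8 CPM in young DN and at 82.6, 65.4, 67.2, 51.4 and 77.8 CPM in young DP. A single DP library, at 51.4 CPM, lay below the highest DN library, and the log2 change was 0.59 (SE 0.127, adjusted p = 0.000708 by edgeR). Of the remaining membrane subunits, Atp5l and Atp5k fell, Atp5k at an adjusted p of 0.0442 that was lost in 7 of 10 fits leaving out 1 library. Atp5sl rose by 0.24 on the log2 scale (adjusted p = 0.0108), and lost the call with library totals as the only scaling and in a fit of all 35 libraries.

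Complex I was divided. Among the core subunits, which carry the flavin, the iron-sulfur clusters and the Q site, Ndufs7, Ndufv1 and Ndufv2 fell, Ndufs3 rose by 0.21 and Ndufs1 and Ndufs8 were not called. Of 28 other subunits, 11 fell and 2 rose. Ndufa10 (chromosome 1, bases 97582045 to 97616816, minus strand) was at 99.7, 98.7, 90.1, 96.5 and 92.8 CPM in young DN and 55.3, 58.8, 51.8, 56 and 54.2 CPM in young DP. The groups were far apart and each was tight, and the log2 change was -0.77 (SE 0.0559, adjusted p = 1.05e-08 by edgeR). Ndufv3 (chromosome 17, bases 32375692 to 32388256, plus strand), a regulatory subunit beside the NADH site, went up, from 36.5, 39.9, 37.8, 33.1 and 36.7 CPM in DN to 66.9, 56.5, 52.1, 55.2 and 55.6 CPM in DP. Every DP library exceeded every DN library, and the log2 change was 0.66 (SE 0.0792, adjusted p = 2.75e-06 by edgeR). Ndufs4 (chromosome 13, bases 120417018 to 120521327, minus strand), needed for a stable NADH-binding module, was at 35.9, 37.6, 34.5, 32.8 and 32.7 CPM in DN and 43.8, 48.3, 49.2, 46.5 and 42.2 CPM in DP, also without overlap, a log2 change of 0.43 (SE 0.0701). The Ndufs3 call was lost with library totals alone and in the fit of all 35 libraries.

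Ndufa12, an accessory subunit of the same arm, had the largest fitted fall among the complex I genes, but its DN libraries disagreed. It was at 48.5, 15.2, 24.2, 14.6 and 23.2 CPM in young DN and 6.60, 8.39, 8.06, 6.37 and 7.72 CPM in young DP. All DN libraries lay above all DP libraries, with young DN 1 well above the other 4, and the log2 change was -1.74 (SE 0.277, adjusted p = 4.82e-05 by edgeR). A processed pseudogene of Ndufa12 on chromosome 5 has its own row with 75.2% as many counts, at 16.0 ± 3.83 CPM in young DN and 10.3 ± 2.36 CPM in young DP, which is a log2 change of -0.61 (adjusted p = 0.00737 by edgeR). How the counting divided reads between gene and copy is not known, so the level of Ndufa12 is uncertain. Such copies also held 29.5% as many counts as Uqcrb, 26.0% as Uqcr10, 7.80% as Atp5h, 6.16% as Uqcr11 and 5.74% as Ndufs3.

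All 4 genes of complex II fell in young DP. Sdhd (chromosome 9, bases 50872290 to 50879801, minus strand) was at 106, 100.2, 92.7, 98.8 and 82.5 CPM in young DN and 68, 59.8, 54.3, 51.7 and 55.3 CPM in young DP, without overlap, a log2 change of -0.71 (SE 0.0837, adjusted p = 2.15e-06 by edgeR). The other membrane anchor Sdhc fell by 0.38, the iron-sulfur subunit gene Sdhb by 0.38 and the flavoprotein gene Sdha by 0.36 on the log2 scale. Sdha was at 382, 383, 363, 364 and 361 CPM in DN and 298, 307, 274, 277 and 271 CPM in DP, the narrowest change of the 4 and yet without overlap.

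In complex III, 7 of 9 genes fell and 0 rose. Cyc1, the heme protein cytochrome c1, was at 132 CPM in DN and 95.7 CPM in DP (log2 -0.44), and Uqcrfs1, the Rieske iron-sulfur protein, fell by 0.23. Both core proteins fell, Uqcrc2 by 0.33 and Uqcrc1 by 0.20. Among the small subunits the changes were larger. Uqcrq was at 53.9, 52.1, 57.3, 56.8 and 43.4 CPM in young DN and 36.8, 28.3, 29.3, 24.9 and 24.2 CPM in young DP, a gap between the groups and a log2 change of -0.86 (SE 0.114). Uqcr11 fell by 0.77 and Uqcr10 by 0.61, while Uqcrb (-0.23) and Uqcrh (0.20) were not called.

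In complex IV, 7 of 14 tested genes fell and 1 rose, with Ndufa4 counted among them. Cox7b (log2 -0.70), Cox5a (-0.66) and Cox8a (-0.62) fell most. Cox5b, a matrix-side subunit as Cox5a is, fell by 0.44. Cox8a was at 51.7, 59.8, 51.1, 45 and 50.4 CPM in DN and 38.3, 28.1, 30.7, 32.4 and 35.9 CPM in DP, without overlap. Ndufa4 fell by 0.50, Cox6c by 0.31 and Cox6b2 by 0.48. Cox4i1, the gene of the largest nuclear-encoded subunit, was at a log2 difference of -0.02 (adjusted p = 0.89), and Cox6a1, Cox6b1, Cox7a2 and Cox7c were not called either. Cox7a2l was at 142 ± 23.7 CPM in DP and 122 ± 6.30 CPM in DN (log2 0.23, adjusted p = 0.0389), a call lost in 6 of 10 fits that left out a library and with library totals as the only scaling.

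**Figure D3:**
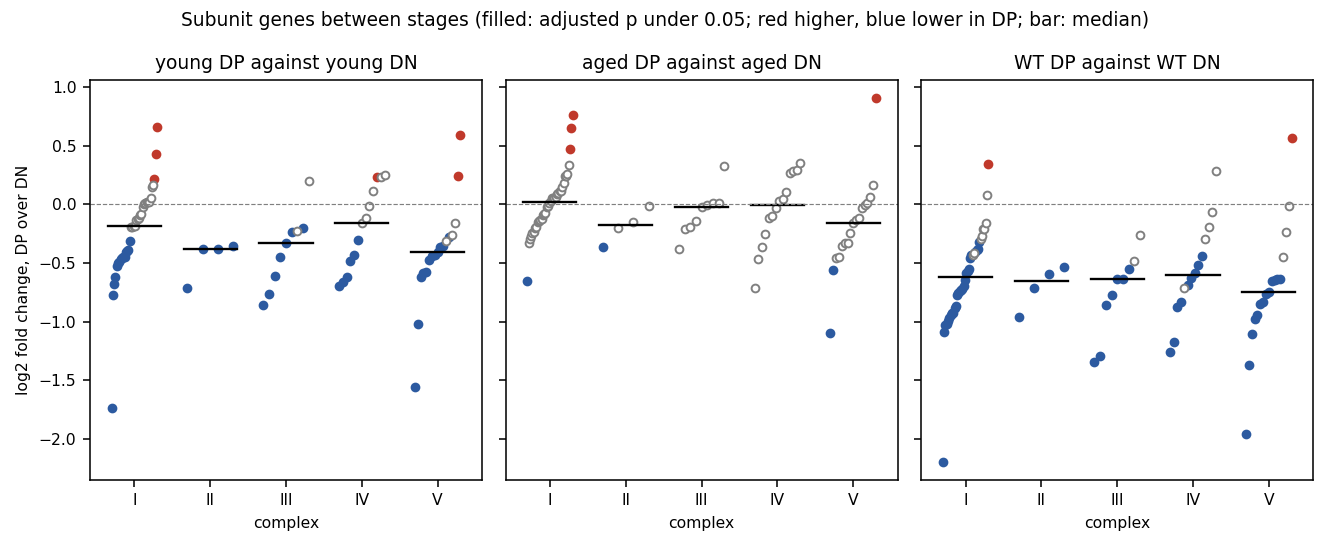
Log2 fold change of each tested subunit gene, DP over DN (vertical axis), by complex, in young, aged and WT mice; points are genes, filled where the adjusted p is under 0.05, and bars are medians of a complex. In the young and WT panels most filled points lie below 0, with 44 and 60 genes lower, and in the aged panel 4 lie below and 4 above.

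In the Cox4, Cox6a and Cox8 families, the form that most tissues use made up nearly all of the RNA. Per kb, the lowest group mean was 99.0% of the Cox4 pair for Cox4i1, and 99.4% and 99.2% of their families for Cox6a1 and Cox8a. Cox6b2, known as the testis form, held 4.74% to 7.69% of the Cox6b pair. Cox7a1, the heart and muscle form, held 1.24% to 2.94% of the Cox7a family; the ubiquitous form Cox7a2 held 28.3% to 42.3% of it and Cox7a2l 56.4% to 68.8%. The Cox7a2l share was 57.5 ± 0.863% in young DN and 63.5 ± 2.5% in young DP. Cox8b, Cox8c and Ndufa4l2, a hypoxia-induced relative of Ndufa4, were below the count filter in every comparison. Per kb of gene model, the highest levels over the 7 groups were those of Atp5a1 (292 CPM per kb) and Atp5b (256). These encode the alpha and beta subunits of the catalytic head. Cox6a1 at 212 and Cox4i1 at 157 followed. The order depends on the model lengths, 3135 bases for Atp5a1 and 4237 for Atp5b. Before division by length Atp5b had more counts over all libraries, 574358 against 482591.

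In WT mice (Mettl3flox/wt; Cd4Cre) most subunit genes were lower in DP cells. Of 80 genes tested, 60 fell and 2 rose, with a median log2 change of -0.64; of all 13490 genes tested, 63.9% were called, 33.7% lower and 30.2% higher. The summed level was 10196, 12762, 11638, 10503 and 10974 CPM in WT DN and 6102, 5835, 7205, 8669 and 6562 CPM in WT DP. The groups were separate, with WT DP 4 the highest of the DP libraries. The 3 largest falls were those of Ndufa12 (log2 -2.19, adjusted p = 0.00014), Atp5g1 (-1.96, adjusted p = 7.4e-08) and Atp5g2 (-1.37, adjusted p = 3.88e-06), all by edgeR. Atp5g1 was at 114, 144, 122, 126 and 129 CPM in WT DN and 30.1, 24.7, 34.3, 44.5 and 27.7 CPM in WT DP. The lowest DN library was more than double the highest DP library, and the Atp5g1 share of the c-ring went from 10.3 ± 0.594% to 5.75 ± 0.325%. All 4 complex II genes, 7 of 9 of complex III and all 5 of the complex V head and central stalk fell.

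Single members showed how far the groups lay apart. Ndufa10 was at 121, 135, 120.0, 122 and 126 CPM in WT DN and 57.2, 59.4, 63, 76.3 and 53.4 CPM in WT DP, a log2 change of -0.99 (SE 0.0956). Uqcrq was at 81.1, 96.5, 85.8, 84.4 and 78.1 CPM and 32.1, 28.8, 34.1, 47.4 and 29.5 CPM, a log2 change of -1.29 (SE 0.13). Cox5a was at 74.1, 115, 90.1, 85.9 and 80.9 CPM and 31.6, 28.8, 32.2, 54.5 and 37.5 CPM, a log2 change of -1.26 (SE 0.17). None of these pairs of groups overlapped. Sdhd fell by 0.96 and Uqcr11 by 1.34.

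The 2 genes that rose in WT mice were Atp5h and Ndufv3. Atp5h was at 57.2, 84.2, 56.6, 62 and 53.7 CPM in WT DN and 50.4, 95.6, 103, 135 and 73.2 CPM in WT DP, which overlapped widely; its log2 change was 0.56 (adjusted p = 0.0343 by edgeR) and the call was lost in 7 of 10 fits without 1 library. Ndufv3 was at 45.2, 69.7, 52.7, 42.8 and 49.1 CPM and 57.6, 59.3, 66.8, 77.2 and 64.1 CPM, a log2 change of 0.35 (adjusted p = 0.0388), likewise lost in 7 of 10. WT DN 2, with B cell markers, held the highest DN value of both. Ndufs4 was at 50.4 ± 6.32 CPM in WT DN and 52.5 ± 13.2 in WT DP (log2 0.08, adjusted p = 0.666). Without WT DN 2, 60 subunit genes fell and 2 rose, with a median of -0.59, while 4756 of all 13699 genes fell and 4447 rose.

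In aged mice the step was called for few subunit genes. Of 80 genes tested, 4 fell and 4 rose, with a median log2 change of -0.03; of all 13596 genes tested, 43.2% were called, 24.6% lower and 18.6% higher. With the replicate number as a block, since same-numbered aged libraries deviate together, 3 rose and 5 fell: Ndufs5 lost its call and Ndufa7 was called lower. The summed level was 5558, 7122, 8662, 7736 and 4984 CPM in aged DN and 6688, 5872, 6694, 6514 and 6024 CPM in aged DP. The DN libraries fell on both sides of the DP range: aged DN 1 and 5 below it and the other 3 above it. Aged DN 1 and 5 were the libraries with markers of innate-like T cells and of B cells. They also had the lowest summed level of 13 S-phase genes, 1950 and 1549 CPM against 4341 CPM as the median of the group. The part of these cells in the result was not tested. Without aged DN 1, aged DN 5 and aged DP 5, an alternative set with the library totals and markers known, 32 genes fell and 6 rose and the median was -0.22, while 8842 of 14046 genes of the whole table were called.

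The 4 genes that fell were Atp5g1, Atp5g2, Ndufa10 and Sdha. Atp5g1 was at 43.3, 56.4, 84.6, 73.8 and 31.9 CPM in aged DN and 24.1, 25.2, 27, 29.4 and 29.9 CPM in aged DP. Even the lowest DN library lay above every DP library, and the log2 change was -1.10 (SE 0.235, adjusted p = 0.00414 by edgeR). Ndufa10 was at 80.5, 86.6, 103, 105 and 63.2 CPM in DN and 57.3, 56.5, 52.1, 57.1 and 57.1 CPM in DP, again with no overlap (log2 -0.65, adjusted p = 0.00288). Sdha was at 361, 348, 388, 357 and 311 CPM in DN and 274, 266, 265, 279 and 290.3 CPM in DP (log2 -0.37, adjusted p = 0.00427). Atp5g2 went from 97.3 ± 25.6 to 66.1 ± 7.34 CPM (log2 -0.56, adjusted p = 0.0209, and 0.0582 without aged DP 2). The c-ring mix differed in the same direction as in young mice, with Atp5g3 at 52.5 ± 4.21% of the family in aged DN and 62.0 ± 0.571% in aged DP.

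Ndufv3, Ndufs4, Atp5h and Ndufs5 were the 4 that rose. Ndufs4 was at 21.9, 32.2, 34.1, 30.2 and 19.2 CPM in aged DN and 50.3, 43.6, 52, 43 and 44.7 CPM in aged DP, without overlap (log2 0.76, adjusted p = 0.00437 by edgeR). Ndufv3 was at 51.8, 37.5, 41.3, 31.8 and 29 CPM in DN and 61.3, 57.7, 68.3, 60.5 and 53.5 CPM in DP (log2 0.65, adjusted p = 0.00684), the lowest DP library just above the highest DN library. Atp5h was at 29.6, 29.9, 50.6, 61.9 and 32.6 CPM in DN and 113, 83.2, 73.7, 71.2 and 43.9 CPM in DP, with overlap (log2 0.90, adjusted p = 0.0235); the call was lost without aged DN 2 (adjusted p = 0.0527) or aged DP 1 (0.0582). Ndufs5, at log2 0.48 and an adjusted p of 0.0493, lost the call in 8 of 10 fits without 1 library and with a term for the replicate number. In complexes III and IV, with none called, the smallest p belonged to Uqcrh (log2 0.33, adjusted p = 0.112) and Cox5a (log2 -0.47, adjusted p = 0.0513). Whether the stage difference itself differed with age was tested as an interaction over the 20 wild-type libraries. By edgeR, 0 of 80 subunit genes and 1 of all 14722 genes (0.00679%) were called. At an unadjusted p under 0.05 by edgeR there were 9 of the 80 and 2229 of all genes. DESeq2 called 0 of the subunit genes and 85 of all genes.

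**Figure D4:**
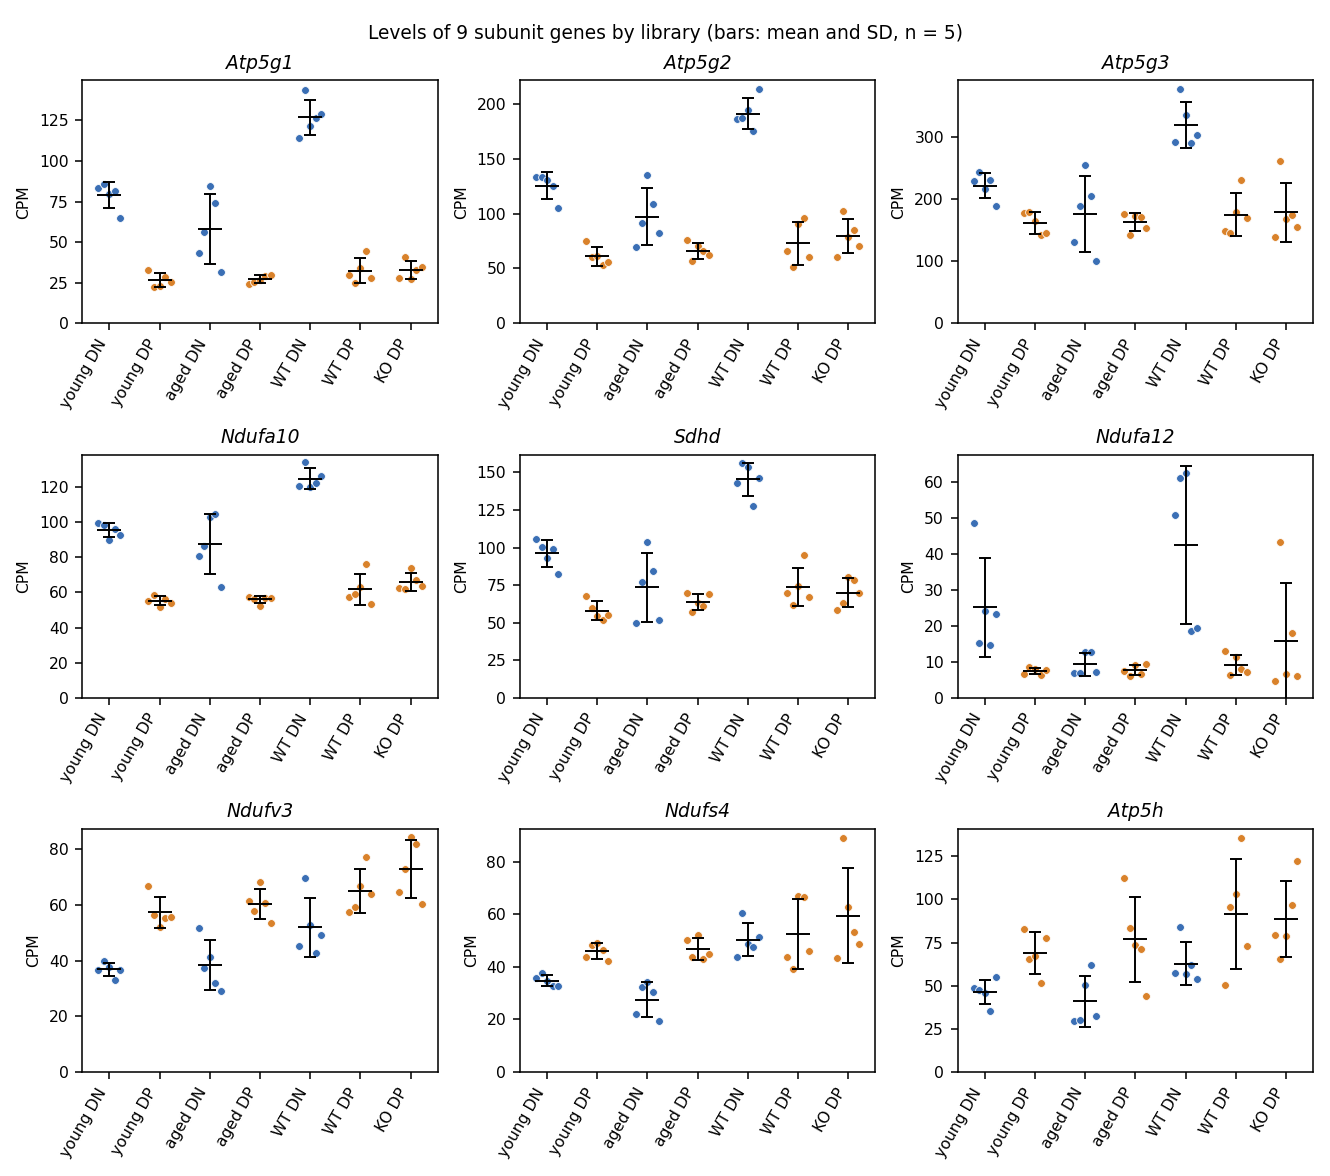
CPM of 9 subunit genes (vertical axes, from 0) in each of the 35 libraries by group; points are libraries, bars mean and SD of 5. Atp5g1 and Ndufa10 lie lower in DP than in DN in young, aged and WT mice, Sdhd does so in young and WT mice while aged DN 1 and 5 (49.4 and 51.8 CPM) lie below every aged DP library, Ndufv3 lies higher in DP in young and aged mice, and Ndufa12 spreads within groups, from 14.6 to 48.5 CPM in young DN.

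Genes that work with the subunits were mostly lower in DP cells in young and WT mice, with smaller counts in aged mice, a difference that was not called for any of these genes in the test of age by stage. The counts stand against 36.5% of all genes called lower in young, 24.6% in aged and 33.7% in WT mice. Of 43 tested assembly factors, which build the complexes, 24 fell and 8 rose in young DP (median -0.41), 28 fell and 2 rose in WT DP and 15 fell and 3 rose in aged DP. Ndufaf4, an assembly factor of complex I, fell in all 3, by 1.71, 1.32 and 2.08 on the log2 scale in young, aged and WT mice. Cox20, a chaperone for a complex IV subunit, rose by 1.56 in young mice. Of 17 citric acid cycle genes 12 fell and 1 rose in young DP (median -0.32), 13 fell and 1 rose in WT DP, and 4 fell and 1 rose in aged DP, the young fall with the smallest adjusted p being that of the succinyl-CoA ligase subunit Suclg2 (-2.55). Of 13 coenzyme Q synthesis genes 8 fell and 1 rose in young, 7 fell and 0 rose in WT and 5 fell and 0 rose in aged DP; Coq2, whose product attaches the tail of coenzyme Q, fell by 1.77 in young mice. Of 74 mitochondrial ribosomal protein genes, which serve the translation of the subunits encoded in mitochondrial DNA, 57 fell and 3 rose in young (median -0.52), 67 fell and 1 rose in WT and 21 fell and 2 rose in aged DP.

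Regulators of mitochondrial gene expression did not share a direction. Of 14 tested, 5 rose and 6 fell in young DP, with a median of -0.04, where 33.9% of all genes rose and 36.5% fell. Myc, a growth regulator, fell by 3.51 and Polg, the mitochondrial DNA polymerase, rose by 1.69 on the log2 scale. Dnajc15, a negative regulator of the respiratory chain known from mouse studies, rose by 1.51 in young and in aged DP and by 1.14 in WT DP. In other gene groups in young DP, 70 of 74 cytosolic ribosomal protein genes fell (median -0.93) and 12 of 13 S-phase genes fell (median -1.09), while 6 of 15 genes of G2 and mitosis rose, near the 33.9% of all genes, and 0 fell. The summed S-phase level was 4969 to 5683 CPM in young DN and 2439 to 3239 CPM in young DP. In young DN the 5 granulocyte markers summed to 256 to 979 CPM and in young DP to 0.62 to 3.06 CPM, and the 9 B cell markers to 91.2 to 354 against 20.2 to 25.5 CPM. The part of cycling cells and of other lineages in the stage differences was not tested.

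Age was compared within each stage, and uses the same young and aged libraries as the stage comparisons. In DN cells 0 of 79 subunit genes were called by edgeR, against 0.267% of all 13873 genes (0.159% higher, 0.108% lower). At an unadjusted p under 0.05 by edgeR there were 4 of the 79 and 3049 of all genes. Of the 79, 73 lay below 0, with a median of -0.22. DESeq2 called 1 of the 79, Ndufa12, and 819 of all 13873 genes. Ndufa12 was at 6.85, 6.80, 12.8, 12.7 and 7.22 CPM in aged DN against 25.1 ± 13.8 CPM in young DN, so that every aged library lay below every young one (log2 -1.40, SE 0.359, adjusted p = 0.128 by edgeR). The smallest p of the other complexes belonged to Sdhb, Uqcr11, Cox7a2l and Atp5k, with adjusted p-values of 0.266, 0.207, 0.253 and 0.239. Without aged DN 1 and 5 the median was -0.06 and 0 genes were called. Several marker sums did not overlap between aged DN and young DN. DN-stage genes summed to 1313 to 2875 against 3128 to 3597 CPM, and granulocyte markers to 5.65 to 73.6 against 256 to 979 CPM. B cell markers were higher, at 364 to 9819 against 91.2 to 354 CPM. So were gamma delta and innate-like T cell markers, at 588 to 7714 against 446 to 520 CPM. The part of these differences in the values was not tested.

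In DP cells 0 of 79 subunit genes were called by edgeR, against 0.942% of all 13059 genes, with a median of 0.03. DESeq2 called 0 of the 79 and 317 of all genes. At an unadjusted p under 0.05 by edgeR there were 1 of the 79 and 1538 of all genes. The subunit gene with that p was Cox8a, at 41.9, 35.2, 43.3, 42 and 38.8 CPM in aged DP against 38.3, 28.1, 30.7, 32.4 and 35.9 CPM in young DP. These ranges overlapped (log2 0.29, adjusted p = 0.215 by edgeR). The summed level, 5872 to 6694 CPM in aged DP and 5956 to 7236 CPM in young DP, overlapped over most of its range.

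The Mettl3 genotypes were compared in DP cells, KO against WT. Here 0 of 80 subunit genes were called by edgeR, against 1.59% of all 13233 genes (1.48% higher, 0.113% lower). At an unadjusted p under 0.05 by edgeR there were 5 of the 80 and 1924 of all genes. The median log2 difference of the subunit genes was 0.08. That median turned to -0.06 without KO DP 2, the library with the fewest genes detected, 12306. DESeq2 called Atp5sl higher and Atp5b lower, and 536 of all 13233 genes (429 higher, 107 lower). Atp5sl was at 69.3, 78.9, 59.5, 60.7 and 51.6 CPM in KO DP and 46.6, 52.5, 44.8, 44.4 and 38.2 CPM in WT DP, nearly separate (log2 0.50, SE 0.136, adjusted p = 0.102 by edgeR and 0.0221 by DESeq2). Atp5b was at 612, 726, 744, 718 and 732 CPM in KO DP and 801, 791, 907, 1140 and 925 CPM in WT DP, every KO library below every WT library (log2 -0.36, SE 0.11, adjusted p = 0.15 by edgeR). Sdha differed by -0.22 (adjusted p = 0.297), Cox7a2l by 0.32 (0.308), Ndufb2 by 0.42 (0.335) and Uqcr11 by 0.20 (0.678). KO DP libraries also held more marker RNA of some other lineages. For B cell markers the sum was 91.5 to 266 CPM against 23.3 to 45.6 CPM in WT DP. Granulocyte markers held 14.1 to 46.4 against 1.42 to 8.73 CPM and macrophage markers 19.7 to 65.3 against 6.02 to 8.28 CPM. NK and innate lymphoid markers held 59.4 to 85.6 against 23.4 to 43.4 CPM. The dendritic cell, plasma cell and gamma delta and innate-like T cell sums overlapped, the first at 951 to 1624 against 1052 to 1215 CPM. DP-stage genes summed to 10964 to 14059 CPM in KO DP, below the 15481 to 17218 CPM in WT DP. DN-stage genes summed to 397 to 1021 CPM in KO DP and 365 to 588 CPM in WT DP. All 13 S-phase genes tested lay below 0 (median log2 -0.34), with 0 called. The part of these differences in the values was not tested.

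**Figure D5:**
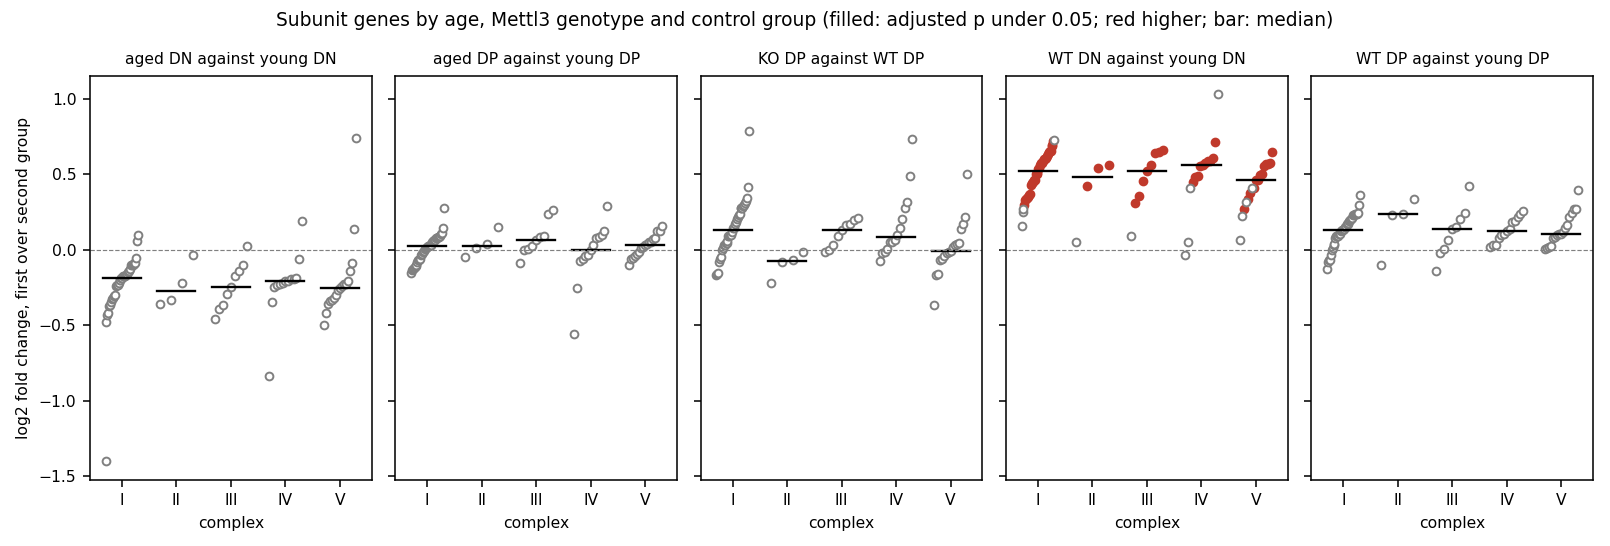
Log2 difference of each tested subunit gene (vertical axis, first over second group) by complex, for age in DN and DP cells, for Mettl3 genotype in DP cells and for the WT against the young control groups; points are genes, filled where the adjusted p is under 0.05, and bars are medians of a complex. Filled points appear in the panel of WT DN against young DN alone, 66 of 80, all above 0.

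The control groups of the same age were not alike in DN cells. WT DN (Mettl3flox/wt; Cd4Cre) exceeded young DN (wild type) in 66 of 80 subunit genes, with 0 lower and a median log2 difference of 0.51; of all 13702 genes tested 25.1% were called, 14.2% higher. The higher genes were 32 of 36 tested of complex I, 3 of 4 of complex II, 8 of 9 of complex III, 10 of 14 of complex IV and 13 of 17 of complex V. Ndufb8, a membrane-arm subunit of complex I, was at 57, 64.8, 60.5, 59.5 and 64.8 CPM in WT DN and 40.0, 40.5, 39.9, 42.1 and 40.4 CPM in young DN, tight in both (log2 0.56, adjusted p = 0.00138 by edgeR). Sdha, in contrast, was at 389, 389, 406, 395 and 393 CPM in WT DN and 382, 383, 363, 364 and 361 CPM in young DN, also without overlap but by a log2 difference of 0.06 (adjusted p = 0.437). Ndufa12, at 0.73 (adjusted p = 0.211), and Atp5h, at 0.41 (adjusted p = 0.0566), were not called.

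Cytosolic ribosomal protein genes were higher alongside, 58 of 74 with a median of 0.60, as were 55 of 74 mitochondrial ribosomal protein genes (median 0.43), 16 of 43 assembly factors and 9 of 17 citric acid cycle genes. Also higher were 5 of 13 S-phase genes and 5 of 7 markers of NK and innate lymphoid cells. These markers summed to 331 to 423 CPM in WT DN against 258 to 297 CPM in young DN, without overlap. DN-stage genes summed lower, to 1256 to 2554 CPM in WT DN against 3128 to 3597 CPM in young DN, also without overlap. Fewer genes had any count in WT DN, 16170 to 17956, than in young DN, 19054 to 19677, at totals that were as high or higher. The part of these differences in the result was not tested, and genotype and any other difference between these groups of mice cannot be told apart. Without WT DN 2, 68 of the subunit genes were higher, with a median of 0.43, and 2446 of all 13937 genes were higher. In DP cells the same contrast called 0 of 79 subunit genes by edgeR, against 0.589% of all 13083 genes. DESeq2 called 0 of the 79 and 447 of all genes. At an unadjusted p under 0.05 by edgeR there were 6 of the 79 and 2053 of all genes. The median of the subunit genes was 0.13, and the smallest p of complex II was that of Sdhd (log2 0.34, adjusted p = 0.152 by edgeR). The difference between the WT and the young stage effects, a comparison added after the data were seen, had a median of -0.38 in the subunit genes. By edgeR, 0 of 80 were called, against 0.682% of all 14655 genes (0.553% higher, 0.13% lower). At an unadjusted p under 0.05 by edgeR there were 46 of the 80 and 2190 of all genes. DESeq2 called 4 of the 80 lower, and of all genes 77 lower and 254 higher. Leaving out 1 library, edgeR called 0 to 13 lower. The 13 came without WT DP 4, the DP library with the highest summed level, whose removal lowers the WT DP mean. Over all 14925 genes tested there, 203 were lower and 199 higher.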

How the data were processed

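Bulk RNA-seq of flow-sorted thymocytes gave 1 deposited table of raw counts per gene, whole numbers that the authors did not normalize, for 35 libraries with 12391908 to 18820157 counts each; 0 per-sample columns were left unused. Counting error falls with depth, and intervals here come from the spread over libraries. RNA was taken from live cells with Trizol, per the labels' protocols. Of tools, the submitters' processing notes list HTSeq 2.0.3 and Subread, which count reads, the aligner STAR 2.5.1, Trim Galore 0.4, DESeq2 and bcl2fastq, and of builds GRCm39 and mm10, with no role given; the table's gene IDs are those of the C57BL/6NJ strain annotation, whose coordinates are printed. Strandedness and the division of reads between gene copies are not given in the sources used here, so antisense reads cannot be told apart.

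Each comparison was fitted across all genes with edgeR 4.0.16 (R 4.3.3, limma 3.58.1): filterByExpr (minimum count 10, minimum total 15), TMM scaling, quasi-likelihood test, two-sided, Benjamini-Hochberg adjustment over all genes tested, called at an adjusted p under 0.05. Only the libraries compared entered a fit. The code was tested on simulated data. CPM use TMM factors over all 35 libraries; log2 changes are the fitted ones. Alternatives were other size factors, library totals alone, no filter, the replicate number as a block, all libraries in 1 fit, DESeq2 1.42.0, and leaving out libraries. Same-numbered aged DN and DP libraries deviated together (r 0.138 to 0.302 over genes, each over 0.1), which pairs them; the labels do not say why.

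Genes and lists were chosen with earlier results of these data known, so no p is given for a list. Named in each comparison were the called gene with the smallest adjusted p per complex and direction (or the smallest p with none called), the 3 largest changes each way with at least 5 CPM, and the isoform families; others were chosen after their values were seen. The values of 1 gene are not reported here. Promoter windows are RefSeq's (GRCm38.p6), and 16 genes without one were not analysed for motifs. Tables and plots used Python 3.11.15, pandas 2.3.3 and matplotlib 3.10.9.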

Additional observations from a re-analysis of the deposited data

Results flagged for a closer look

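Within groups of 5, a value was singled out where its gap to the nearest library exceeded 0.71 of the group's range; 22 of 273 sets of values met this, and chance gives about 1 in 20. Of these, 5 lay in WT DN 2, the library with B cell markers: Atp5h at 84.2 CPM (others 53.7 to 62.0), Cox6a1 at 284.9 (187.5 to 214.1), Cox8a at 85.6 (68.0 to 68.9), Uqcr10 at 77.6 (43.7 to 53.3) and Uqcrh at 162.4 (104.8 to 116.3). Another 5 lay in WT DP 4, the DP library with the highest summed level: complex II summed to 618.3 CPM (467.5 to 502.2), Sdha was at 312.2 (250.5 to 268.3), Sdhb at 122.3 (85.6 to 87.8), Sdhc at 88.6 (66.9 to 72.0) and Uqcrq at 47.4 (28.8 to 34.1). In KO DP 2, Cox4i1 was at 396.2 CPM (192.3 to 238.5) and Sdhb at 122.7 (75.7 to 83.8). In young DP 1, complex III summed to 766.7 CPM (624 to 663) and Cyc1 was at 113.7 (90.0 to 93.4). In young DN 1, Ndufa12 was at 48.5 CPM (14.6 to 24.2) and Cox6b2 at 14.4 (11.0 to 11.9). In young DN 5, Cox4i1 was at 178.7 CPM (218.2 to 227.2) and Sdhc at 73.0 (82.8 to 86.3). The rest stood alone: Atp5sl at 133.9 CPM in aged DN 5 (34.2 to 44.5), Cox5a at 46.2 in young DP 2 (31.6 to 35.5), Cox6c at 46.9 in aged DP 5 (64.2 to 70.9) and Ndufa10 at 52.1 in aged DP 3 (56.5 to 57.3). No cause was tested.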

How the results depend on the processing

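Between the stages, no called subunit gene picked by smallest adjusted p or largest change reversed direction under the alternatives run. Genes outside the subunits were not followed one by one through the alternatives. From DN to DP in young mice, 3 subunit genes were higher with library totals alone and 3 in a fit of all 35 libraries, against 6. Over all genes, 3846 of 13772 and 3488 of 15453 were higher there, against 4671 of 13772. Leaving out 1 library gave 5 to 7 subunit genes higher and 43 to 52 lower, and 4484 to 4632 and 4866 to 5268 of all genes. Library totals alone moved the median of all genes there from -0.01 to -0.14, and that of the subunit genes to -0.44. In aged mice, 8 subunit genes were lower by DESeq2 and 32 without the libraries that stand apart, against 4. Without 1 library 2 to 6 were higher and 3 to 13 lower, 13 without aged DN 5, and 2 higher without aged DN 2 or without aged DP 1. Over all genes, 3380 of 13596 were lower by DESeq2, 4618 of 14046 without the libraries that stand apart and 3559 of 13870 without aged DN 5. The main fit called 3345 of 13596 lower. In WT mice, 1 subunit gene was higher with library totals alone, 4 with no low-count filter and 1 with the replicate block, against 2, and 0 to 2 without 1 library (56 to 63 lower). Over all genes, 3874 of 13490, 4820 of 23252 and 3898 of 13490 were higher in those settings, against 4080 of 13490. Without 1 library 3916 to 4447 of all genes were higher and 4317 to 4756 lower. In aged against young DN, 2 subunit genes were lower in the fit of all 35 libraries and 1 by DESeq2. Over all genes, 487 of 15453 and 208 of 13873 were lower there. In KO against WT DP, DESeq2 called 1 higher and 1 lower, and 429 and 107 of all 13233 genes. In the comparison of WT and young stage effects DESeq2 called 4 lower, and 77 of all 14655 genes. Leaving out 1 library there gave 0 to 13, with 203 of all 14925 genes lower without WT DP 4. WT DN against young DN gave 57 to 68 subunit genes higher without 1 library, and 1267 to 2446 of all genes. The causes were not tested. With the replicate number as a block, young mice had 7 higher and 47 lower, aged mice 3 and 5, WT mice 1 and 57, and WT DN against young DN 63 higher. Over all genes the block gave 4696 and 5114, 2440 and 3007, 3898 and 4316, and 1295 higher. Same-numbered young libraries had r of 0.0275 to 0.156, all above 0, but not each over 0.1. For young DN 2, 3, 4 and 5 the same number gave the highest r, so pairing there is not excluded. In WT mice r was -0.141 to 0.223. The medians without 1 library were -0.39 to -0.30 in young, -0.15 to 0.05 in aged and -0.71 to -0.57 in WT mice, and -0.06 to 0.15 in KO against WT DP. Genes near 5 CPM or below, such as Cox7a1 and Cox6a2, had too few counts for small differences to be detectable at this depth.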

Other observations

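Genes of mitochondrial import, structure and turnover were also read beside the subunits. Of 14 tested, 9 fell and 2 rose from DN to DP in young mice (median log2 change -0.35), 5 fell and 2 rose in aged mice, and 9 fell and 2 rose in WT mice, against 36.5%, 24.6% and 33.7% of all genes called lower. Hspa9, the mitochondrial Hsp70 that pulls proteins into the matrix, fell by 1.80, 1.53 and 2.04 on the log2 scale in young, aged and WT mice, to 152 ± 14.3 CPM (SD, n = 5) in young DP. Bnip3l, a receptor through which mitochondria are taken up for degradation, rose by 0.62, 0.43 and 0.52. Of 15 tested genes that serve the chain without being counted among its subunits, 11 fell and 2 rose in young mice, 3 fell and 2 rose in aged mice, and 12 fell and 2 rose in WT mice. Dhodh, which feeds electrons from pyrimidine synthesis to coenzyme Q, fell by 1.28 in young and by 0.86 in aged mice. Cycs, the somatic cytochrome c gene, fell by 1.42 in WT mice.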
